A study of Mus musculus with 9 samples.

Results

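The transcripts of 10 genes of glycolysis were followed in C2C12 cells: Hk1, Hk2, Gpi1, Pfkl, Pfkm, Aldoa, Gapdh, Pgk1, Pkm and Ldha. C2C12 is an established mouse line of myoblasts, the precursors of skeletal muscle fibres. RNA was taken 48 h after transfection with an siRNA against Cugbp1 (3 arrays), an siRNA against Mbnl1 (3 arrays) or a control siRNA (3 arrays), and was measured on exon arrays, which carry separate probe sets along each gene. All groups were labelled as myoblasts and were grown in medium with fetal bovine serum. The labels do not say whether the 3 arrays of a group came from separate cultures, so p-values measure only a spread among arrays that may be technical. A probe set counted as a member when the platform annotation gave it exactly 1 symbol and that symbol was one of the 10 genes or an older name (Pkm2 for Pkm). This found 210 of the 316997 probe sets with 1 symbol, and 5 more that name Aldoa together with a second gene were left out. After a filter on dim signals 188 remained, and 9 of the 10 genes were among the 12646 genes tested. Gapdh had only 2 probe sets, below the minimum of 3, and is described without a test. The 10 genes were selected on the basis of values from these same 9 arrays, Pkm for its use of exons, so the levels and fitted changes below describe the members, and the adjusted p-values, taken from the fit over all genes, are no independent evidence that they respond.

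Glycolysis splits glucose into pyruvate and yields ATP without oxygen. Hexokinases trap glucose in the cell, phosphofructokinase commits it to the pathway, the later enzymes recover ATP and NADH, pyruvate kinase makes pyruvate, and lactate dehydrogenase turns pyruvate into lactate so that glycolysis can go on. Pkm is known for a pair of mutually exclusive exons: the M1 form is the pyruvate kinase of adult muscle, and the M2 form, which can be held in a less active state, is that of embryonic and dividing cells such as myoblasts. The choice is made by splicing factors, among them the proteins of Ptbp1, Hnrnpa1 and Hnrnpa2b1. CELF1, the protein of Cugbp1 (now Celf1), and MBNL1 bind RNA and steer splicing and mRNA stability in muscle.

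The targeted genes checked the labels: Celf1 stood at 36.4% of control after Cugbp1 siRNA and Mbnl1 at 39.3% of control after Mbnl1 siRNA. Median intensities of the arrays were 42.3 to 42.8 after Cugbp1 siRNA, 42.5 to 42.9 after Mbnl1 siRNA and 43.6 to 43.8 in control. The control arrays also lay apart from all 6 siRNA arrays along principal component 1 of the gene values (2.16 to 9.49 after Cugbp1 siRNA, 8.73 to 11.2 after Mbnl1 siRNA and -14.5 to -16.7 in control), and what sets the control arrays apart was not tested. All 10 myoblast markers passed the filter on dim signals. Their mean level was 10.20 to 10.28 after Cugbp1 siRNA, 10.12 to 10.26 after Mbnl1 siRNA and 10.13 to 10.14 in control (log2 intensity, as are all levels below). Over the 9 arrays Vim read 13.74 to 13.80 and Pax7 only 7.57 to 7.79. The neural marker Gfap read 7.56 to 7.82. Of 16 markers of blood, vessel, epithelial, fat, bone and neural cells, 11 passed the filter, while Cdh5, Kdr, Epcam, Adipoq and Bglap did not. The mean of these 11 was 7.90 to 7.99 after Cugbp1 siRNA, 8.00 to 8.05 after Mbnl1 siRNA and 8.12 to 8.17 in control, and the part of these markers in the members' values was not tested. The 8 of 12 markers of differentiated muscle that passed the filter (Myog did not) had a mean of 7.82 to 7.88 after Cugbp1 siRNA, 7.75 to 7.94 after Mbnl1 siRNA and 7.72 to 7.80 in control. Single markers moved more than these means: of the differentiated list 2 rose after Cugbp1 siRNA (Mymk by 0.54, Myh3 by 0.36) and 1 after Mbnl1 siRNA (Atp2a1 by 0.14), and 0 fell. Of the 11 of other cell types 0 rose and 6 fell after Cugbp1 siRNA, and 2 rose (Cd68 by 0.49, Tubb3 by 0.18) and 5 fell after Mbnl1 siRNA. Of the myoblast list 3 rose and 0 fell after Cugbp1 siRNA, and 2 rose and 1 fell after Mbnl1 siRNA. Over all genes 26% were called higher and 12.7% lower after Cugbp1 siRNA, and 26.9% higher and 14.6% lower after Mbnl1 siRNA. Between the siRNAs the change of Mymk was 0.51 and that of Cd68 -0.53 for Cugbp1 siRNA minus Mbnl1 siRNA. The cultures were of an established myoblast line, so the markers of other cell types are not read as a share of such cells. Some of these markers lay near the cut of the filter on dim signals, such as Ptprc (7.21 to 7.55) and Sox10 (7.26 to 7.80). Tubb3 was brighter (8.84 to 9.23). Of the differentiated list, Myh3 (7.32 to 7.88) and Atp2a1 (7.16 to 7.42) also lay near that cut. With arrays centred on their median gene value, 1 of that list rose after Cugbp1 siRNA, 0 rose after Mbnl1 siRNA and 0 fell. For the muscle markers, fewer cells in a state and less RNA per cell cannot be told apart in such bulk RNA.

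After Cugbp1 siRNA, 3 genes of the early steps were higher than in control: Hk1, Pfkm and Pfkl rose and 0 of the 9 tested members fell (limma with Benjamini-Hochberg at an adjusted p under 0.05; 0 lower also at an unadjusted p under 0.05). Across all genes that comparison called 38.7% (26% higher and 12.7% lower). After Mbnl1 siRNA, Hk2 and Aldoa fell and 0 of 9 rose (0 higher also at an unadjusted p under 0.05), where 41.5% of all genes were called (26.9% higher and 14.6% lower). The siRNAs were then compared with each other, which leaves the control arrays out of the difference. Hk1, Hk2 and Pfkl were higher after Cugbp1 siRNA than after Mbnl1 siRNA and 0 of 9 were lower (5 higher and 0 lower at an unadjusted p under 0.05), against 9.34% of all genes called (4.27% higher and 5.07% lower). Since the members were chosen on these comparisons, nothing is read from these shares. The median change of the 9 members was 0.04 for Cugbp1 siRNA over control, -0.06 for Mbnl1 siRNA over control and 0.13 for Cugbp1 siRNA over Mbnl1 siRNA on the log2 scale, beside medians over all genes of 0.05, 0.04 and 0.01. The largest change of any member was 0.27 in size (Hk2). Both comparisons with control share the 3 control arrays.

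**Figure D1:**
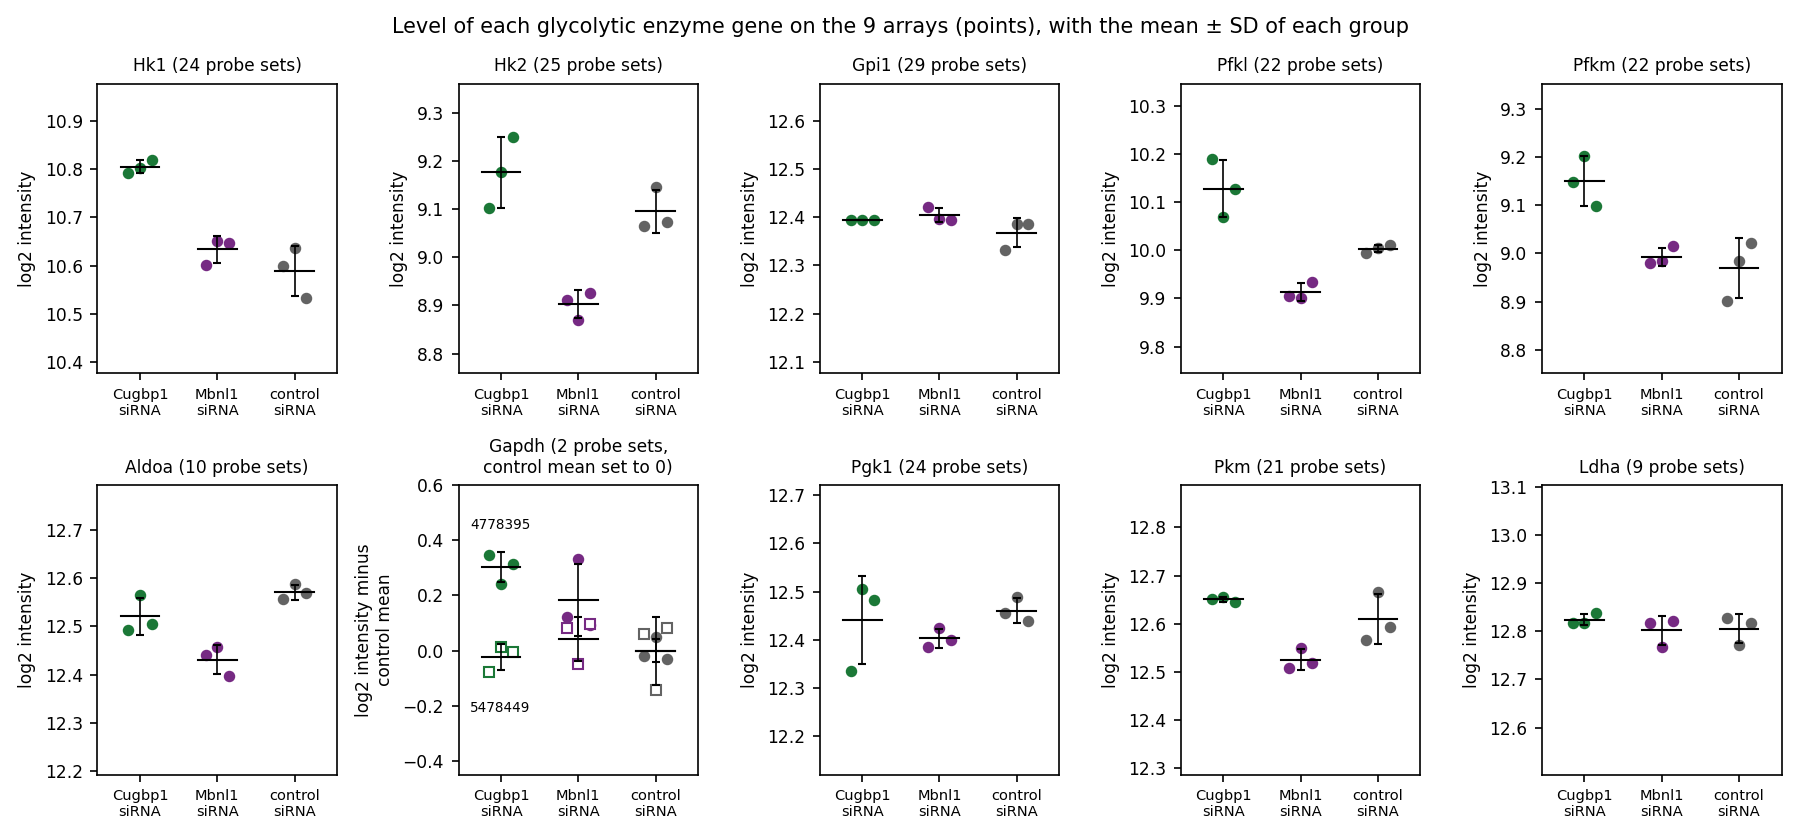
Level of each gene (log2 intensity, y axis) on the 3 arrays of Cugbp1 siRNA, Mbnl1 siRNA and control siRNA (points), with the mean and SD of each group (bars); each panel has its own y axis, of the same span in every panel but that of Gapdh. Gapdh is drawn as its 2 probe sets (4778395 filled, 5478449 open), each relative to its control mean. Hk1, Pfkl and Pfkm sit highest after Cugbp1 siRNA, and Hk2 and Aldoa lowest after Mbnl1 siRNA.

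Hk1 encodes the hexokinase found in most tissues. Its level was 10.79, 10.80 and 10.82 after Cugbp1 siRNA, 10.60, 10.65 and 10.65 after Mbnl1 siRNA and 10.60, 10.64 and 10.53 in control. All 3 Cugbp1 siRNA arrays lay above the other 6, while Mbnl1 siRNA and control overlapped. Hk1 rose by 0.22 over control (SE 0.042; limma with Benjamini-Hochberg, adjusted p = 0.00393), to 116.1% of the control level (95% interval 108.8% to 123.9%), with 19 of its 24 probe sets higher. It was 0.17 higher after Cugbp1 siRNA than after Mbnl1 siRNA (SE 0.042, adjusted p = 0.031), and Mbnl1 siRNA minus control was 0.04 (adjusted p = 0.417). The rise over control passed under all 18 alternative settings (0.14 to 0.25). The difference between the siRNAs passed under 10 of the 18 and was lost without any 1 of 5 arrays: Cugbp1 siRNA replicates 2 and 3 and each Mbnl1 siRNA array (adjusted p = 0.0612 to 0.104, log2 difference 0.17 to 0.18). It was also lost with no filter on dim probe sets, with a replicate block and with the median of probe sets in place of median polish. Over the 18 settings the adjusted p reached 0.213.

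Hk2 encodes the hexokinase of muscle and fat, the isoform that insulin and hypoxia induce. It read 9.10, 9.18 and 9.25 after Cugbp1 siRNA, 8.91, 8.87 and 8.93 after Mbnl1 siRNA and 9.07, 9.15 and 9.07 in control. The Mbnl1 siRNA arrays were below the other 6, and Cugbp1 siRNA and control overlapped. Hk2 fell by 0.19 against control after Mbnl1 siRNA (SE 0.0487; limma with Benjamini-Hochberg, adjusted p = 0.0106), to 87.5% of the control level (81.2% to 94.3%). It was 0.27 higher after Cugbp1 siRNA than after Mbnl1 siRNA (SE 0.0487, adjusted p = 0.00702), the largest difference among the members, and 24 of its 25 probe sets pointed that way. That difference passed under all 18 alternative settings (0.23 to 0.32). The fall against control was lost without Mbnl1 siRNA replicate 2 (-0.17, adjusted p = 0.0502) and without control replicate 2 (-0.15, adjusted p = 0.0738). Cugbp1 siRNA minus control was 0.08 (adjusted p = 0.204), and its sign depended on the scaling of the arrays (-0.00 when each array was centred on its median gene value).

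Phosphofructokinase, the main control point of the pathway, is built from liver-type (Pfkl), muscle-type (Pfkm) and platelet-type subunits. Pfkl was at 10.19, 10.07 and 10.13 after Cugbp1 siRNA, 9.90, 9.90 and 9.93 after Mbnl1 siRNA and 10.00, 10.00 and 10.01 in control. The groups were in 3 separate bands, highest after Cugbp1 siRNA and lowest after Mbnl1 siRNA. Pfkl was 0.21 higher after Cugbp1 siRNA than after Mbnl1 siRNA (SE 0.0425; limma with Benjamini-Hochberg, adjusted p = 0.0116), with 20 of 22 probe sets higher. This difference held under 14 of 18 alternative settings. It was lost without Mbnl1 siRNA replicate 1 (0.21, adjusted p = 0.0567) or replicate 2 (0.21, adjusted p = 0.0507). No filter on dim probe sets and the median of probe sets in place of median polish also lost it. Over the 18 settings the adjusted p for Pfkl reached 0.0711. Its rise of 0.13 over control after Cugbp1 siRNA (SE 0.0425, adjusted p = 0.0405) was near the threshold and passed under 3 of 18 alternative settings, being lost without any 1 of the arrays other than Cugbp1 siRNA replicate 2 (0.10 to 0.13, adjusted p = 0.064 to 0.16). Mbnl1 siRNA minus control was -0.09 (adjusted p = 0.114) and was called lower under 3 of 18 alternative settings. It was -0.17 with an adjusted p of 0.0157 when arrays were centred on their median gene value. With quantile normalisation repeated it was -0.13 (adjusted p = 0.0367), and with it over the kept probe sets -0.16 (adjusted p = 0.0156).

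Pfkm read 9.15, 9.20 and 9.10 after Cugbp1 siRNA, 8.98, 8.98 and 9.01 after Mbnl1 siRNA and 8.90, 8.98 and 9.02 in control. The Cugbp1 siRNA arrays were above the other 6, and Mbnl1 siRNA and control overlapped. Pfkm rose by 0.18 over control after Cugbp1 siRNA (SE 0.0467; limma with Benjamini-Hochberg, adjusted p = 0.0136), to 113.3% of the control level (105.4% to 121.7%). The call held under 13 of 18 alternative settings. It was lost without Cugbp1 siRNA replicate 2 (0.15, adjusted p = 0.0518), without control replicate 1 (0.15, adjusted p = 0.0507) and with centring on the median gene value (0.10, adjusted p = 0.12). Quantile normalisation over the kept probe sets (0.10, adjusted p = 0.098) and the median of probe sets in place of median polish also lost it. Over the 18 settings the adjusted p reached 0.199. The difference between the siRNAs was 0.16 (95% interval 0.05 to 0.26), with 21 of 22 probe sets higher after Cugbp1 siRNA, and did not pass (adjusted p = 0.0648). It passed under 3 of 18 alternative settings. They were quantile normalisation repeated (0.16, adjusted p = 0.0472), the stricter filter on dim probe sets and leaving out Cugbp1 siRNA replicate 3. Mbnl1 siRNA minus control was 0.02 (adjusted p = 0.703).

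Gpi1, the isomerase between hexokinase and phosphofructokinase, read 12.39 on all 3 Cugbp1 siRNA arrays, 12.42, 12.40 and 12.39 after Mbnl1 siRNA, and 12.33, 12.39 and 12.39 in control. The siRNA arrays lay above the control arrays by a margin of about 0.01. The fitted differences were 0.03 for Cugbp1 siRNA minus control (limma with Benjamini-Hochberg, adjusted p = 0.599), 0.04 for Mbnl1 siRNA minus control (adjusted p = 0.468) and -0.01 between the siRNAs (adjusted p = 0.914). The 95% intervals reach 0.12 at most. With the median of probe sets in place of median polish, Gpi1 was 0.13 for Cugbp1 siRNA minus control (adjusted p = 0.154). It was not called in any of the 3 comparisons.

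**Figure D2:**
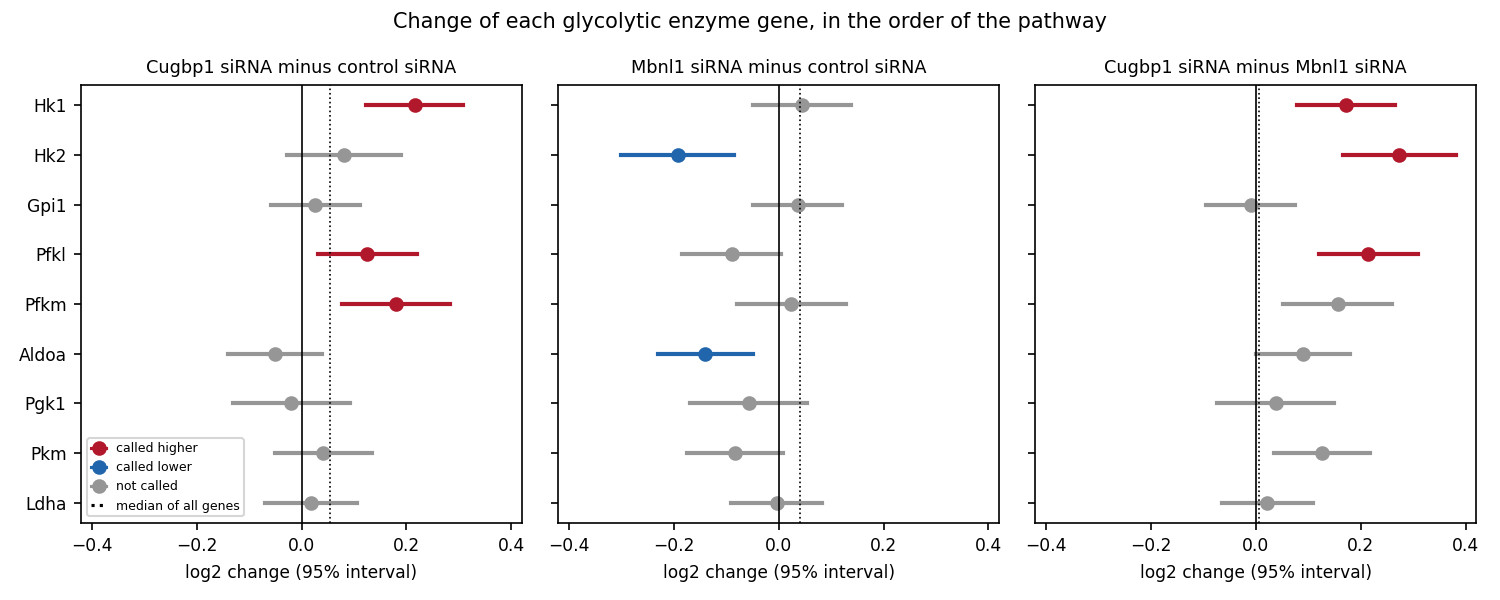
Log2 change of each tested gene (points, with 95% intervals), in the order of the pathway from the top, in the 3 comparisons; red marks genes called higher, blue genes called lower, grey genes not called, and the dotted line is the median of all genes. The called genes are Hk1, Pfkl and Pfkm (Cugbp1 siRNA minus control), Hk2 and Aldoa (Mbnl1 siRNA minus control) and Hk1, Hk2 and Pfkl (Cugbp1 siRNA minus Mbnl1 siRNA).

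Hk1, Hk2 and Pfkl, which were higher after Cugbp1 siRNA than after Mbnl1 siRNA, are shown with the sequence 250 bases upstream of their annotated starts, so that a reader can see what these regions share. The sequences come from RefSeq (GRCm38.p6) and are given 5′ to 3′ on the strand of the gene. Capitals mark matches on either strand to ACGTG, the core of the HIF-1 binding site, and to GGGCGG, a GC box. All starts are on the minus strand, at chr10:62340422-62340671 and chr10:62379909-62380158 for Hk1, chr6:82774455-82774704 for Hk2 and chr10:78009808-78010057 for Pfkl.
Hk1, first start: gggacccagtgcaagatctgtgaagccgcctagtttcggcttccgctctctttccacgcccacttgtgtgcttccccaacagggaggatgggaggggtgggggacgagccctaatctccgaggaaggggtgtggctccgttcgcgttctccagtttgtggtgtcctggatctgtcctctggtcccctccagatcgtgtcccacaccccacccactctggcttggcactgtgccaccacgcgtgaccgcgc
Hk1, second start: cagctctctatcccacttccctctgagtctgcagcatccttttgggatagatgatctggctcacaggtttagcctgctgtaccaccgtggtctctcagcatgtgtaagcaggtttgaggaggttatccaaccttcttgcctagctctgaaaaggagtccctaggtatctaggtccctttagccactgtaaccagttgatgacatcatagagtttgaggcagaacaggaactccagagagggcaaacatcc
Hk2: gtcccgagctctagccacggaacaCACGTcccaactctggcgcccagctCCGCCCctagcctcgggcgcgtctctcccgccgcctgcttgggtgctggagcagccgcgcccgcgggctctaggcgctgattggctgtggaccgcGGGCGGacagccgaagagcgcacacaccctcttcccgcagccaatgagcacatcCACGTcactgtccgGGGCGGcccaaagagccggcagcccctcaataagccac
Pfkl: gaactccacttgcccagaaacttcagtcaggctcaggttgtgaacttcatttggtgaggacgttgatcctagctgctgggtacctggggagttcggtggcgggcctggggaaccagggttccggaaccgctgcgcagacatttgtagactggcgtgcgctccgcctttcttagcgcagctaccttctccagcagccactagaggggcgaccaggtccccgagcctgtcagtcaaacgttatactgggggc
The Hk2 window held 2 matches to ACGTG and 3 to GGGCGG, and the windows of Hk1 and Pfkl held neither. Over all 10 genes, 8 of 18 windows (6 genes) held ACGTG and 7 of 18 (6 genes) GGGCGG, against 16.6% and 32.7% of 32851 windows of the same length across the annotation. Windows of the same gene can overlap, as some of Aldoa and of Pfkm did, and each was counted. The share of genes with a match across the annotation was not counted. The E-box CACGTG, to which MYC binds and which holds ACGTG on both strands, was in 2 of 18 windows, of Pfkm and Ldha, against 6.02% of all windows. The first Ldha window held 5 matches to ACGTG, the most of the 18. A match is a run of letters and not a shown binding site.

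Past phosphofructokinase, Aldoa alone was called with the arrays as deposited. Aldoa, the muscle-type aldolase that splits the sugar bisphosphate, was at 12.49, 12.57 and 12.51 after Cugbp1 siRNA, 12.44, 12.46 and 12.40 after Mbnl1 siRNA and 12.56, 12.59 and 12.57 in control. The Mbnl1 siRNA arrays were the lowest of all, and Cugbp1 siRNA and control overlapped. Aldoa fell by 0.14 against control after Mbnl1 siRNA (SE 0.0405; limma with Benjamini-Hochberg, adjusted p = 0.0197), to 90.8% of the control level (85.3% to 96.6%), with 9 of 10 probe sets lower. The call held under 14 of 18 alternative settings. It was lost without control replicate 3 (-0.14, adjusted p = 0.0573) and when arrays were scaled to equal medians (-0.09, adjusted p = 0.0819). No filter on dim probe sets and the median of probe sets in place of median polish also lost it. Over the 18 settings the adjusted p reached 0.298. Cugbp1 siRNA minus control was -0.05 (adjusted p = 0.342), but -0.14 with an adjusted p of 0.0205 after centring on the median gene value. The siRNAs differed by 0.09 (adjusted p = 0.213).

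Gapdh, the enzyme that yields NADH and a common loading control, is described from its 2 probe sets. Probe set 4778395 read 12.16, 12.05 and 12.13 after Cugbp1 siRNA, 11.94, 12.15 and 11.91 after Mbnl1 siRNA and 11.79, 11.86 and 11.78 in control. All 6 siRNA arrays were above the control arrays, by 0.30 after Cugbp1 siRNA and 0.18 after Mbnl1 siRNA on average. Probe set 5478449 read 13.41, 13.50 and 13.48 after Cugbp1 siRNA, 13.57, 13.44 and 13.59 after Mbnl1 siRNA and 13.55, 13.35 and 13.57 in control, overlapping throughout. The pair therefore disagreed, and no direction is given for Gapdh.

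Pgk1, the first enzyme to regain ATP, read 12.34, 12.50 and 12.48 after Cugbp1 siRNA, 12.39, 12.42 and 12.40 after Mbnl1 siRNA and 12.45, 12.49 and 12.44 in control. Cugbp1 siRNA replicate 1 was the lowest of the 9 arrays, and that group overlapped both others. Cugbp1 siRNA minus control was -0.02 (-0.13 to 0.09 at 95%; limma with Benjamini-Hochberg, adjusted p = 0.773), and 0.03 without that array. Mbnl1 siRNA minus control was -0.06 (adjusted p = 0.379), with 18 of 24 probe sets lower, and -0.13 with an adjusted p of 0.0458 when arrays were centred on their median gene value. The siRNAs differed by 0.04 (adjusted p = 0.706).

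Ldha, which makes lactate, read 12.82, 12.82 and 12.84 after Cugbp1 siRNA, 12.82, 12.77 and 12.82 after Mbnl1 siRNA, and 12.83, 12.77 and 12.82 in control. The 3 groups overlapped in every pairing. The differences were 0.02 for Cugbp1 siRNA minus control (95% interval -0.07 to 0.11), -0.00 for Mbnl1 siRNA minus control (-0.09 to 0.08) and 0.02 between the siRNAs (-0.07 to 0.11). They depended on the summary: with the median of probe sets in place of median polish they were 0.16 for Cugbp1 siRNA minus control and 0.11 between the siRNAs. Ldha was not called under any of the 18 alternative settings.

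Pkm read 12.65, 12.66 and 12.65 after Cugbp1 siRNA, 12.51, 12.55 and 12.52 after Mbnl1 siRNA and 12.57, 12.67 and 12.59 in control. The Mbnl1 siRNA arrays were the lowest of the 9, and the Cugbp1 siRNA arrays lay inside the range of the controls. Cugbp1 siRNA minus control was 0.04 (-0.05 to 0.13 at 95%; limma with Benjamini-Hochberg, adjusted p = 0.439) and turned to -0.04 with arrays centred on their median gene value. Mbnl1 siRNA minus control was -0.08 (-0.18 to 0.01, adjusted p = 0.126), with 18 of 21 probe sets lower, and was called only with that centring (-0.16, adjusted p = 0.0192). Between the siRNAs Pkm differed by 0.13 (0.03 to 0.22, adjusted p = 0.0899), with 20 of 21 probe sets higher after Cugbp1 siRNA. Arrays of the groups did not overlap in 4 of the 9 genes for Cugbp1 siRNA against control, 6 for Mbnl1 siRNA against control and 6 for Cugbp1 siRNA against Mbnl1 siRNA, where 48.8%, 57.5% and 29.5% of all genes did not.

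Beyond its overall level, Pkm was selected for probe sets that left the rest of the gene, and these are given as a description with no test. A departure is the value of a probe set minus the gene value on the same array, so a change in it marks a stretch whose signal moved relative to the rest of the gene. Of the 21 Pkm probe sets, 1 had a departure of at least 0.5 in size between Cugbp1 siRNA and control, a different 1 between Mbnl1 siRNA and control, and 2 between the siRNAs. Departures of this size were not particular to Pkm. Hk1, Pfkl and Pgk1 had 1 each for Cugbp1 siRNA minus control, and Pfkl and Pgk1 had 1 each for Mbnl1 siRNA minus control. Between the siRNAs Pgk1 had 2 of 24. The share of all probe sets at this size was not counted. The departures lay between -0.23 and 0.64 for Cugbp1 siRNA minus control, between -0.70 and 0.17 for Mbnl1 siRNA minus control and between -0.16 and 0.77 between the siRNAs. Just outside the 3 largest in a comparison were 5458900 (0.20 and 0.17 for Cugbp1 siRNA and Mbnl1 siRNA minus control) and 5260620 (0.32 between the siRNAs).

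Probe set 5223822 marked Cugbp1 siRNA. Its level was 10.19, 10.05 and 10.08 after Cugbp1 siRNA, 9.50, 9.52 and 9.49 after Mbnl1 siRNA and 9.37, 9.47 and 9.43 in control. The groups did not overlap, and the step lay between Cugbp1 siRNA and the other 6 arrays. Its departure was 0.64 for Cugbp1 siRNA and 0.16 for Mbnl1 siRNA, each minus control, and 0.48 between the siRNAs. The first of these stayed between 0.56 and 0.66 under the 19 alternative settings.

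Probe set 5327561 marked Mbnl1 siRNA instead. Its level was 10.92, 10.84 and 10.84 after Cugbp1 siRNA, 9.90, 10.00 and 10.03 after Mbnl1 siRNA and 10.71, 10.89 and 10.69 in control. The 3 Mbnl1 siRNA arrays were well below the other 6, which overlapped. Its departure was 0.06 for Cugbp1 siRNA minus control, -0.70 for Mbnl1 siRNA minus control (-0.76 to -0.66 under 19 alternative settings) and 0.77 between the siRNAs.

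Probe set 4875896, a dim one, followed the same order with more scatter. It read 7.44, 7.80 and 7.77 after Cugbp1 siRNA, 6.69, 7.23 and 7.09 after Mbnl1 siRNA and 7.40, 7.37 and 7.84 in control. The Mbnl1 siRNA arrays were again the lowest. The departure was -0.45 for Mbnl1 siRNA minus control and 0.54 for Cugbp1 siRNA minus Mbnl1 siRNA. The other Pkm probe sets with the largest departures were smaller: 4594835 at 0.24 for Cugbp1 siRNA minus control, and 5601983 at -0.23 for Cugbp1 siRNA minus control and -0.22 for Mbnl1 siRNA minus control. No probe set coordinates were used here, so it is not stated which of these lie in the M1 or the M2 exon, and no change of isoform is claimed.

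**Figure D3:**
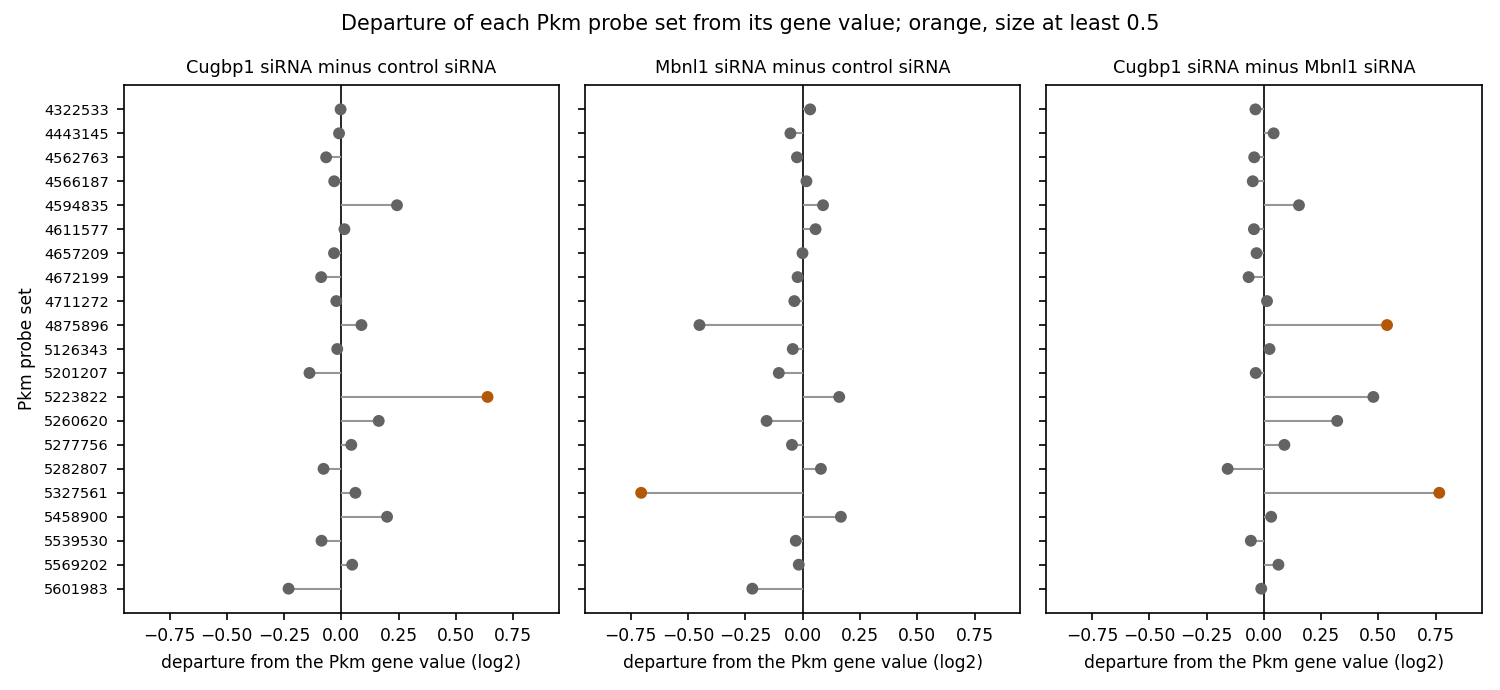
Departure of each of the 21 Pkm probe sets (rows, by ID) from the Pkm gene value, on the log2 scale, for each siRNA minus control and for Cugbp1 siRNA minus Mbnl1 siRNA; orange marks departures of at least 0.5 in size. Probe set 5223822 stands out for Cugbp1 siRNA (0.64) and probe set 5327561 for Mbnl1 siRNA (-0.70).

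The other members had 165 probe sets in the same fit of departures. Called were 4 (2.42%) for Cugbp1 siRNA and 4 (2.42%) for Mbnl1 siRNA, each against control, and 0 between the siRNAs (limma with Benjamini-Hochberg; 8 at an unadjusted p under 0.05, and 0 with limma's diffSplice). The shares over all 158713 probe sets tested were 3.75%, 6.98% and 0.0277%. Probe set 5426178 of Pfkl was called in both comparisons with control. Its level was 9.22, 9.08 and 9.09 after Cugbp1 siRNA, 8.89, 8.91 and 9.14 after Mbnl1 siRNA and 8.43, 8.04 and 8.26 in control. All 6 siRNA arrays lay above the controls, with departures of 0.76 for Cugbp1 siRNA minus control (SE 0.129, adjusted p = 0.012) and 0.83 for Mbnl1 siRNA minus control (SE 0.129, adjusted p = 0.00564), called under 18 and 19 of 19 alternative settings.

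A Pgk1 probe set, 5399938, was low where its gene was not. It read 11.00, 11.31 and 11.46 after Cugbp1 siRNA, 11.47, 11.69 and 11.55 after Mbnl1 siRNA and 11.82, 11.78 and 11.73 in control. The 3 groups did not overlap, lowest after Cugbp1 siRNA, and the departure was -0.50 for Cugbp1 siRNA minus control (limma with Benjamini-Hochberg, adjusted p = 0.0366, called under 7 of 19 alternative settings). In Hk1, probe sets 5425509 (-0.36, adjusted p = 0.017) and 5228929 (-0.82, adjusted p = 0.047) departed downwards after Cugbp1 siRNA, and 4752091 upwards after Mbnl1 siRNA (0.40, adjusted p = 0.0449). Of these, 5228929 was dim, at 7.19, 7.25 and 6.82 after Cugbp1 siRNA and 8.02, 7.27 and 7.78 in control. These levels lie near the cut of the filter on dim signals, and how far that shapes its departure was not tested. The remaining calls, both for Mbnl1 siRNA minus control, were 4732574 of Gpi1 (0.49, adjusted p = 0.0327) and 5123998 of Pfkl (-0.34, adjusted p = 0.0483). These 5 calls held under 7 to 14 of their alternative settings. Hk2, Pfkm, Aldoa and Ldha had 0 called departures in all 3 comparisons.

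**Figure D4:**
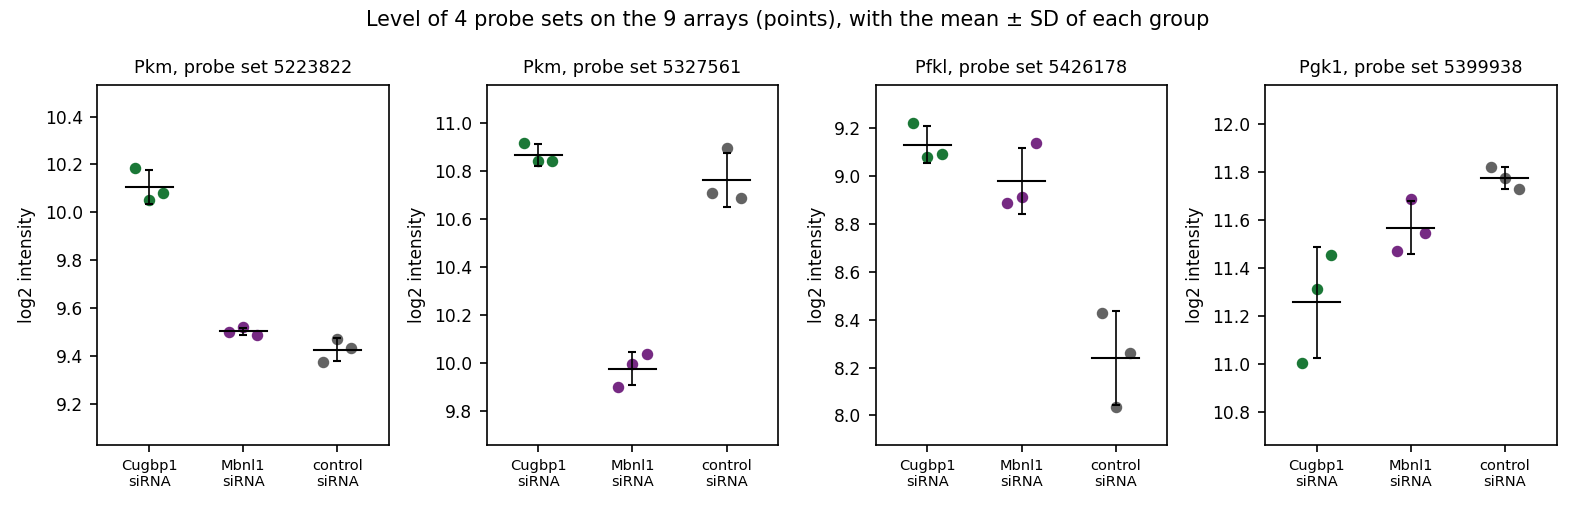
Level (log2 intensity, y axis) of Pkm probe sets 5223822 and 5327561, Pfkl probe set 5426178 and Pgk1 probe set 5399938 on the 3 arrays of Cugbp1 siRNA, Mbnl1 siRNA and control siRNA (points), with the mean and SD of each group (bars). The Pkm probe sets separate Cugbp1 siRNA and Mbnl1 siRNA from the other groups, and the Pfkl and Pgk1 probe sets separate control from both siRNAs.

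Across the 9 arrays the members fell into loose groups, given here as a description over arrays that share 3 treatments. Pkm tracked Hk2 (Pearson r = 0.88) and Pfkl (r = 0.81), Hk1 tracked Pfkm (r = 0.82), and Hk2 tracked Pfkl (r = 0.81). Ldha tracked none of them closely (r between -0.17 and 0.41). Among 12637 genes outside the list, the ones most like Pkm were Piga (r = 0.97), Mlst8 (r = 0.97) and Pold2 (r = 0.96). Those most like Ldha were Dnajb2 (r = 0.96), Rgs12 (r = 0.95) and Bhlhe22 (r = 0.93). Ldha itself moved only between 12.77 and 12.84, lowest on Mbnl1 siRNA replicate 2 and control replicate 2. Its correlations therefore follow small differences among single arrays, and shared regulation was not tested.

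Related genes were read from lists of the surrounding pathways. Over all genes the median change was 0.05 for Cugbp1 siRNA minus control and 0.04 for Mbnl1 siRNA minus control. The shares of all genes called higher and lower were 26% and 12.7% after Cugbp1 siRNA, and 26.9% and 14.6% after Mbnl1 siRNA. All counts are calls by limma with Benjamini-Hochberg, followed by the counts with arrays centred on their median gene value, since that scaling turned the balance of all genes: 1677 of 4403 calls were rises for Cugbp1 siRNA minus control, against 3293 of 4893 as deposited, and 2207 rises for Mbnl1 siRNA minus control, against 3397 of 5245 as deposited. Of 12 other glycolytic enzymes tested, 3 rose and 1 fell after Cugbp1 siRNA (1 and 2 with centring), and 2 rose and 1 fell after Mbnl1 siRNA (1 and 2), with list medians of 0.05 and 0.10. Eno2, an enolase best known from neurons, and Bpgm, which diverts a glycolytic intermediate, rose by 0.32 and 0.21 after Cugbp1 siRNA. Eno1, the enolase of most tissues, was 0.21 and 0.22 higher, and Hk3, a hexokinase of blood cells, was 0.36 and 0.33 lower, after Cugbp1 siRNA and Mbnl1 siRNA against control. Hk3 was called under all 4 other scalings, and Eno1 and Eno2 under 2 of 4. The level of Hk3 was low, at 7.12 to 7.74 over the arrays, near the cut of the filter on dim signals. Pfkp, the platelet-type phosphofructokinase, averaged 8.98 after Cugbp1 siRNA, 9.17 after Mbnl1 siRNA and 8.97 in control. It rose by 0.20 over control after Mbnl1 siRNA and was 0.18 lower after Cugbp1 siRNA than after Mbnl1 siRNA (limma with Benjamini-Hochberg, adjusted p = 0.0221), where Pfkl was 0.21 higher.

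The lactate transporter gene Slc16a1 stood out among 6 tested transport genes, of which 0 rose and 1 fell after Cugbp1 siRNA (0 and 2 with centring) and 0 rose and 3 fell after Mbnl1 siRNA (0 and 4), with medians of -0.04 and -0.15. Slc16a1 read 10.98, 10.89 and 10.92 after Cugbp1 siRNA, 10.53, 10.66 and 10.53 after Mbnl1 siRNA and 10.99, 11.09 and 10.96 in control. The Mbnl1 siRNA arrays were lowest without overlap. It fell by 0.44 against control after Mbnl1 siRNA (limma with Benjamini-Hochberg, adjusted p = 2.59e-04) and was 0.36 higher after Cugbp1 siRNA than after Mbnl1 siRNA (adjusted p = 0.00296). Slc2a4, the insulin-responsive glucose transporter, was 0.24 and 0.25 lower after Cugbp1 siRNA and Mbnl1 siRNA than in control. Its level was low, at 7.22 to 7.63 over the arrays, near the cut of the filter on dim signals. How far signal near the cut shapes the change of Slc2a4 was not tested. Slc2a8 was 0.27 lower after Mbnl1 siRNA.

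A list of 14 genes covered the entry of pyruvate into mitochondria and its use there by pyruvate dehydrogenase. Of these, 8 rose and 0 fell after either siRNA against control (4 and 2 after Cugbp1 siRNA and 7 and 1 after Mbnl1 siRNA with centring), with medians of 0.16 and 0.19. Among them were pyruvate dehydrogenase kinases, which inhibit pyruvate dehydrogenase. Pdk1 rose by 0.42 after Cugbp1 siRNA and 0.29 after Mbnl1 siRNA. Its level was low, at 7.28 to 7.84 over the 9 arrays. Pdk2 rose by 0.25 after Cugbp1 siRNA (not called with centring) and 0.42 after Mbnl1 siRNA. Dld, a subunit of the dehydrogenase itself, rose by 0.33 after Cugbp1 siRNA and 0.35 after Mbnl1 siRNA. Pdha1, another subunit, rose by 0.23 after Cugbp1 siRNA, and Pdk3 by 0.35 after Mbnl1 siRNA. Pdk4 read 9.04, 9.10 and 9.10 after Cugbp1 siRNA, 9.42, 9.37 and 9.49 after Mbnl1 siRNA and 9.04, 9.04 and 9.02 in control. Only the Mbnl1 siRNA arrays were high, by 0.40 over control, and Pdk4 was 0.35 lower after Cugbp1 siRNA than after Mbnl1 siRNA (limma with Benjamini-Hochberg, adjusted p = 0.00115).

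In the pentose phosphate pathway, which draws on the sugar phosphate that hexokinase makes, 4 of 6 tested genes rose after Cugbp1 siRNA and 2 after Mbnl1 siRNA, and 0 fell (2 and 2 rose and 0 fell with centring), with medians of 0.22 and 0.03. Tkt, a transketolase, rose by 0.33 after Cugbp1 siRNA and 0.23 after Mbnl1 siRNA, and Rpe, an epimerase, by 0.22 and 0.23 after the same siRNAs. Taldo1, a transaldolase, rose by 0.23 after Cugbp1 siRNA. Pgd, which makes NADPH, read 11.16, 11.04 and 11.12 after Cugbp1 siRNA, 10.81, 10.81 and 10.75 after Mbnl1 siRNA and 10.87, 10.77 and 10.77 in control. It was high on the Cugbp1 siRNA arrays alone, by 0.31 over control (limma with Benjamini-Hochberg, adjusted p = 0.00144) and by 0.32 over Mbnl1 siRNA (adjusted p = 0.0031).

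The 5 genes Pfkfb1 to Pfkfb4 and Tigar set the level of fructose 2,6-bisphosphate, an activator of phosphofructokinase. They gave 1 rise after Cugbp1 siRNA and 2 after Mbnl1 siRNA, and 0 falls (the same counts with centring), with medians of 0.03 and 0.10. Pfkfb2 rose by 0.54 after Cugbp1 siRNA and 0.43 after Mbnl1 siRNA, and Pfkfb1 by 0.37 after Mbnl1 siRNA. The level of Pfkfb2 in control was low, at 7.36 to 7.43, near the cut of the filter on dim signals. Pfkfb1 was dim, with a mean of 7.16 after Cugbp1 siRNA, 7.64 after Mbnl1 siRNA and 7.27 in control. Among 9 genes of glycogen metabolism 3 rose after Cugbp1 siRNA and 1 after Mbnl1 siRNA, with 0 falls (medians 0.07 and 0.04). They were Gbe1 (0.24), Phkb (0.22) and Gys1 (0.21) after Cugbp1 siRNA and Phka1 (0.22, called under 1 of the 4 other scalings) after Mbnl1 siRNA. With centring 1 rose and 2 fell after Cugbp1 siRNA, and 0 rose and 3 fell after Mbnl1 siRNA. Of 8 genes of the serine and glycerol phosphate branches, 2 rose after Cugbp1 siRNA, Shmt2 by 0.24 and Gpd2 by 0.21, and 0 changed after Mbnl1 siRNA (1 at an unadjusted p under 0.05), with medians of 0.11 and 0.01. With centring 1 of these rises was called.

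Among the regulators of glycolytic genes, of 10 HIF-1 and MYC regulators 3 rose and 0 fell after Cugbp1 siRNA (2 and 3 with centring), and 2 rose and 1 fell after Mbnl1 siRNA (0 and 2), with medians of 0.04 and 0.03. Myc, a transcription factor that drives glycolytic genes, rose by 0.35 after Cugbp1 siRNA and 0.20 after Mbnl1 siRNA, the smaller rise not called with centring. Max, its partner, rose by 0.21 after Cugbp1 siRNA and 0.11 after Mbnl1 siRNA, and Egln2 fell by 0.19 after Mbnl1 siRNA. With centring 0 regulators were called higher after Mbnl1 siRNA, so the rise of Max there was not called either. Egln3, an oxygen-sensing hydroxylase that is itself induced by HIF-1, read 10.32, 10.37 and 10.38 after Cugbp1 siRNA, 9.96, 10.03 and 9.98 after Mbnl1 siRNA and 10.01, 10.04 and 9.96 in control. Its rise was seen with Cugbp1 siRNA only, at 0.37 over Mbnl1 siRNA (limma with Benjamini-Hochberg, adjusted p = 7e-04). Of 9 other HIF-1 target genes, 5 rose and 0 fell after Cugbp1 siRNA (4 and 1 with centring) and 5 rose and 1 fell after Mbnl1 siRNA (3 and 2), with medians of 0.16 and 0.20. The mitophagy gene Bnip3 rose by 0.41 and 0.34 and the mTOR inhibitor gene Ddit4 by 0.54 and 0.46 after Cugbp1 siRNA and Mbnl1 siRNA. P4ha1 rose by 0.26 after either siRNA and Kdm3a by 0.28 after Cugbp1 siRNA. Bnip3l, a relative of Bnip3, was 0.35 lower after Mbnl1 siRNA than in control and 0.28 higher after Cugbp1 siRNA than after Mbnl1 siRNA (adjusted p = 0.00803).

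Among 9 genes, most of them splicing factors, known to act on the Pkm exons, 2 rose and 0 fell after Cugbp1 siRNA (1 and 1 with centring), and 4 rose and 0 fell after Mbnl1 siRNA (1 and 0), with medians of 0.09 and 0.18. Hnrnpa1 read 10.12, 10.21 and 10.19 after Cugbp1 siRNA, 10.16, 10.32 and 10.25 after Mbnl1 siRNA and 9.96, 10.04 and 9.74 in control. All siRNA arrays were above the controls, by 0.26 after Cugbp1 siRNA (limma with Benjamini-Hochberg, adjusted p = 0.0199) and 0.33 after Mbnl1 siRNA (adjusted p = 0.00613), of which the smaller rise was not called with centring. Rbm4b rose by 0.27 after Cugbp1 siRNA and 0.18 after Mbnl1 siRNA. Hnrnpa2b1 rose by 0.18 after Mbnl1 siRNA (adjusted p = 0.0438) and Ptbp2 by 0.20. Of the 4 rises after Mbnl1 siRNA, only 1 was called with centring. Ptbp1, the best known repressor of the M1 exon, did not pass in either comparison with control (0.07 and 0.09, adjusted p = 0.179 and 0.0813). Between the siRNAs 0 of the 9 were called (limma with Benjamini-Hochberg; 1 at an unadjusted p under 0.05).

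Between the siRNAs 9.34% of all genes were called. In the remaining lists 1 of the 12 glycolytic enzymes was lower after Cugbp1 siRNA, and 1 of the 6 transport genes was higher. Of the 5 fructose 2,6-bisphosphate genes 1 was lower (the dim Pfkfb1, -0.48). Of the 14 pyruvate genes 1 was higher (Mpc1, 0.15) and 2 were lower (Pdk4 and Pdp1, the second at -0.17). Also higher were 1 of the 6 pentose phosphate genes, 1 of the 10 regulators and 1 of the 9 HIF-1 targets. Mpc1 was called under 2 and Pdp1 under 1 of the 4 other scalings. The glycogen list and the serine list had 0 calls each (2 and 2 at an unadjusted p under 0.05).

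**Figure D5:**
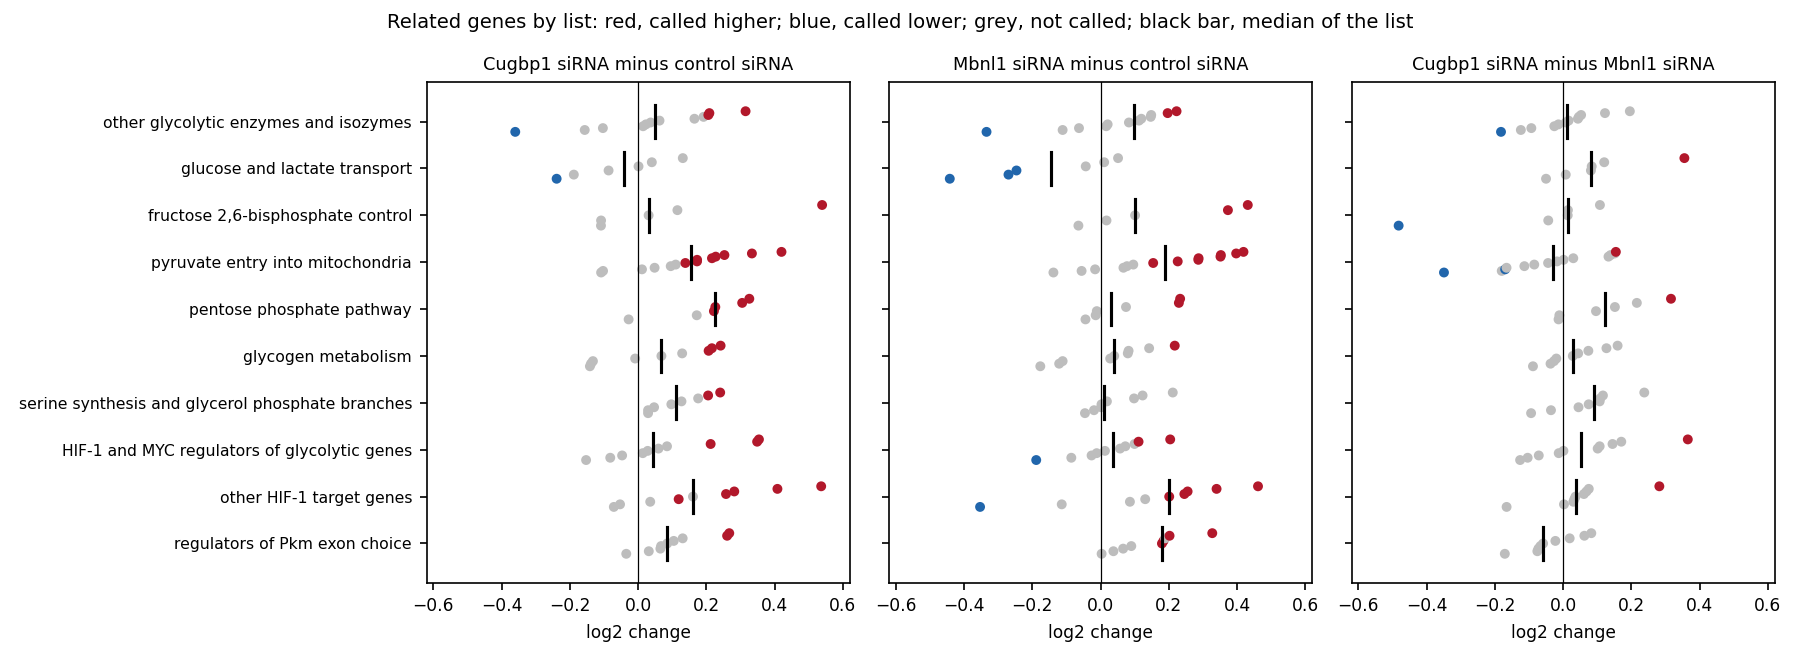
Log2 change (x axis) of every tested gene of the 10 related lists (1 line of points per list), for each siRNA minus control and for Cugbp1 siRNA minus Mbnl1 siRNA; red points were called higher, blue points called lower and grey points not called, and the black bar is the median of the list. Ddit4 (0.46) and Slc16a1 (-0.44) lie farthest apart for Mbnl1 siRNA minus control. Pfkfb1 (-0.48), a dim gene, lies farthest left between the siRNAs.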

How the data were processed

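Total RNA (100 ng) of 9 samples, 3 per siRNA, was hybridised to exon arrays, 1 sample per array. The deposited table holds 1 intensity per probe set and array on a linear scale. The submitters' processing notes name RMA, Affymetrix Expression Console and mm9. Versions and options are not given in sources used here. The authors' intensities were kept as deposited and turned into log2 values. Probe sets with a mean log2 value at or above the 75th percentile (7.00, an intensity of 128) were kept. A gene value is the median polish of at least 3 kept probe sets of 1 symbol (12646 genes). A departure is a probe set minus its gene value, for genes with at least 4 kept sets (158713 probe sets). The median polish mixes isoforms, so a gene value is no isoform's level.

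All 9 arrays entered 1 fit with limma 3.58.1 in R 4.3.3, with Benjamini-Hochberg adjustment over all genes or all probe sets and a threshold of 0.05. The scripts were tested on simulated data. Precision is limited by the number of arrays. The members and lists were chosen with earlier results of these data known. All members were named. From each related list, at most 4 called genes with the largest changes in a comparison were named. Of Pkm, the 3 probe sets with the largest departures in each comparison were named, and of the other members the called ones, at most 2 per gene with the largest departures. Another probe set of Hk1, 5425509, was added after its values were seen. For Pkm and Ldha, the 3 most correlated genes were named. The alternatives were other scalings, filters and summaries, leaving out each array, a replicate block, fits on 6 arrays and diffSplice.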

Additional observations from a re-analysis of the deposited data

How the results depend on the processing

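No called change of a member turned its direction under an alternative. The scaling with arrays centred on their median gene value and the quantile normalisation over the kept probe sets were added after seeing the data. The 3 members called for Cugbp1 siRNA minus control, all higher, became 1 higher (Hk1, 0.14) and 1 lower (Aldoa, -0.14) with arrays centred on their median gene value, 1 with quantile normalisation over the kept probe sets, 1 with the median of probe sets in place of median polish, and 1 to 2 when 1 array was left out. The 2 called for Mbnl1 siRNA minus control became 1 with arrays centred on their median, 1 with no filter on dim probe sets, 1 with the median of probe sets, 5 with arrays centred on their median gene value, and 1 to 2 when 1 array was left out. Pfkl was called lower besides them with quantile normalisation repeated and with it over the kept probe sets. The 3 called between the siRNAs became 1 with no filter, 1 with the median of probe sets, and 1 to 3 when 1 array was left out. Pfkm was called higher besides them with quantile normalisation repeated and with the stricter filter on dim probe sets. The 4 called departures for Cugbp1 siRNA minus control became 0 with no filter, 1 on the 6 arrays compared, 9 with diffSplice and 1 to 3 when 1 array was left out. The 4 for Mbnl1 siRNA minus control became 2 with quantile normalisation over the kept probe sets, 1 with no filter, 1 on the 6 arrays, 12 with diffSplice and 1 to 4 when 1 array was left out. Same-numbered arrays did not pair (correlations of -0.101 to 0.124), and with the replicate as a block 2, 2 and 2 members and 2, 2 and 0 departures were called for Cugbp1 siRNA and Mbnl1 siRNA against control and between the siRNAs. Changes that were not called turned sign as follows. For Cugbp1 siRNA minus control, centring on the median gene value gave -0.0033 for Hk2, -0.0393 for Gpi1, -0.0443 for Pkm and -0.0468 for Ldha, quantile normalisation over the kept probe sets -0.0043 for Hk2, the median of probe sets -0.0391 for Pkm, and centring on the array median 0.0123 for Pgk1 (-0.047 to 0.0285 with 1 array left out). For Mbnl1 siRNA minus control, centring on the median gene value gave -0.019 for Hk1, -0.0228 for Gpi1 and -0.0287 for Pfkm. Pfkm was also -0.0086 with quantile normalisation repeated, -0.0399 with it over the kept probe sets, -0.041 with the median of probe sets and -0.0045 to 0.0471 with 1 array left out. Ldha was 0.0245 with arrays centred on their median, 0.0573 with the median of probe sets and -0.0282 to 0.0162 with 1 array left out. Between the siRNAs Gpi1 was 0.0172 with the median of probe sets and -0.0199 to 0.0032 with 1 array left out. Over all genes, 1181 calls between the siRNAs became 639 with no filter and 474 with the median of probe sets. Departures called over all probe sets were 5955, 11072 and 44 in the 3 comparisons, 671, 2689 and 0 with no filter, and 11709, 17155 and 554 with diffSplice. The cause of these shifts was not tested.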
